A study of Chlorella sp. with 12 samples.

Results

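The comparison of high PEG drought with its control was taken from a study of the green microalga Chlorella sp., strain TLD6B. It set cultures in 0.1 g/mL PEG-6000 (PEG2, 2 libraries) against cultures without PEG-6000 (CK18, 2 libraries), both sampled on day 18, so 4 of the 12 libraries of the series belong to it. PEG-6000 is a polyethylene glycol, a polymer too large to enter algal cells readily, and it lowers the water potential of the medium. PEG2 and CK18 cultures shared the strain, the BBM medium, the light regime and the temperature, and neither held added NaCl. A milder dose of 0.05 g/mL PEG-6000 on day 18 (PEG1, 2 libraries) is given where the dose matters. The libraries were chosen by these labels alone. The study calls its replicates biological, and the labels do not say which flask each library came from, so p-values measure the spread between these libraries only. A change in growth stage at a given day and an effect of PEG-6000 cannot be told apart in this design.

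A cell in a drying or osmotically strong medium loses water until its inner solute concentration balances the outside. Green algae are known to respond with compatible solutes such as proline, trehalose, sucrose and glycerol, with enzymes that remove reactive oxygen, with changes in membrane fatty acids, and often with slower division and stored starch or oil. Chlorella species can also live on acetate, which acetyl-CoA synthetase activates to acetyl-CoA. That acetyl-CoA is oxidised in the TCA cycle or, through the glyoxylate cycle and phosphoenolpyruvate carboxykinase, turned into sugar.

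RNA was measured as FPKM, the fragments of a transcript relative to its length and to all mapped fragments of the library. The table held 155503 unigenes, which are assembled transcripts clustered into gene-like units, without a genome. Of these, 47032 carried 1 of 3282 KO identifiers, the KEGG codes for a protein function, and 84173 carried a SwissProt description. Many unigenes were assembled for the same protein, so FPKM were also summed by KO, and each library was scaled by a median-ratio factor. Levels below are these scaled FPKM sums unless a unigene is named. The filter kept 3085 KOs and 73149 unigenes, and left out 197 KOs and 82354 unigenes as too low. A fold change is PEG2 over CK18 on the scale of log2(scaled FPKM + 0.1), which understates the change of low genes, and ± is its SE with n = 2 libraries in each group. Limma took this SE and the p-value from a spread shared by CK18, PEG1 and PEG2. A DEG had a Benjamini-Hochberg adjusted p under 0.05 in limma, over all KOs or all unigenes tested, and changed by at least 1 on the log2 scale in either direction.

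The depth behind each FPKM value was not used here, so no counting error is given. Between 78996 and 79627 unigenes were above 0 in the PEG2 libraries and between 72356 and 78382 in the CK18 libraries. Unigenes whose best hit in the NR protein database was Chlorella or Auxenochlorella held 64.1% and 60.8% of the FPKM in PEG2 and 61.4% and 60.6% in CK18. The green algal markers were present in all 4 libraries. Levels of rbcS, the small subunit of the CO2-fixing enzyme, were 95546 and 117976 in PEG2 and 65873 and 84008 in CK18. Levels of psaD, a photosystem I subunit, were 617.9 and 1251 in PEG2 and 715.9 and 605.1 in CK18. The NR hits named only plants, algae and protists, so bacteria and fungi could not be seen in them. SwissProt best hits to fungal entries held 2.79% and 3.19% of the FPKM in PEG2 and 3.21% and 2.98% in CK18, and those to betaproteobacteria 0.0384% and 0.0369% in PEG2 and 0.0279% and 0.0379% in CK18. Hits to oomycetes held 0.0673% and 0.0737% of the FPKM in PEG2 and 0.0797% and 0.103% in CK18. Unigenes shorter than 400 bp held 70.9% and 70.5% of the FPKM in PEG2 and 71.2% and 70.5% in CK18. In bulk RNA, a smaller share of cells of one state and less RNA per cell cannot be told apart.

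The PEG2 libraries stood apart from each other. Over all KOs tested, the SD between replicates on the log2 scale was 0.442 in CK18, 0.367 in PEG1 and 0.66 in PEG2. Of 2015 KOs with at least 10 FPKM in PEG2, 309 differed by 2-fold or more between its libraries (15.3%), and replicate 2 was the higher in 205 of these. The corresponding share was 1.22% of 2047 KOs in PEG1 and 2.36% of 1946 KOs in CK18. Antenna and photosystem genes were among them. For most lists below, the median is also given without PEG2 replicate 1 and without PEG2 replicate 2.

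No single unigene was a DEG of PEG2 against CK18 (0%), although limma gave 10576 of 73149 an unadjusted p under 0.05 (14.5%), 5603 higher (7.66%) and 4973 lower (6.8%) in PEG2. Both PEG2 libraries lay above both CK18 libraries for 14592 unigenes (19.9%) and below them for 13769 (18.8%), and 9896 (13.5%) and 9021 (12.3%) of these also differed by 2-fold. By KO sum, 38 of 3085 functions were DEGs (1.23%): 15 rose in PEG2 (0.486%) and 23 fell (0.746%). Limma gave 592 an unadjusted p under 0.05 (19.2%), 278 higher (9.01%) and 314 lower (10.2%) in PEG2. These shares are the background for list counts of PEG2 against CK18 below that carry none. The PEG2 and CK18 libraries did not overlap in any of the 38. Picking them by a test on the same values largely fixes this outcome. Over all KOs tested, 689 were higher (22.3%) and 781 lower (25.3%) without overlap, of which 142 (4.6%) and 254 (8.23%) also differed by 2-fold. The SE of the 38 fold changes ran from 0.18 to 0.63. It can be too small for PEG2, whose replicates lay further apart than those of PEG1 and CK18 in the shared spread. With only CK18 and PEG2 in the fit, 15 KOs were DEGs, and 14 of the 38 were still called. The number of KO DEGs hung on single libraries: it was 201 without PEG2 replicate 1, 362 without PEG2 replicate 2, 17 and 13 without PEG1 replicate 1 or 2, and 0 without either CK18 library, with 299 (CK18 replicate 1 left out) and 441 (CK18 replicate 2 left out) KOs at an unadjusted p under 0.05. All 38 kept their direction in each of these fits.

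**Figure D1:**
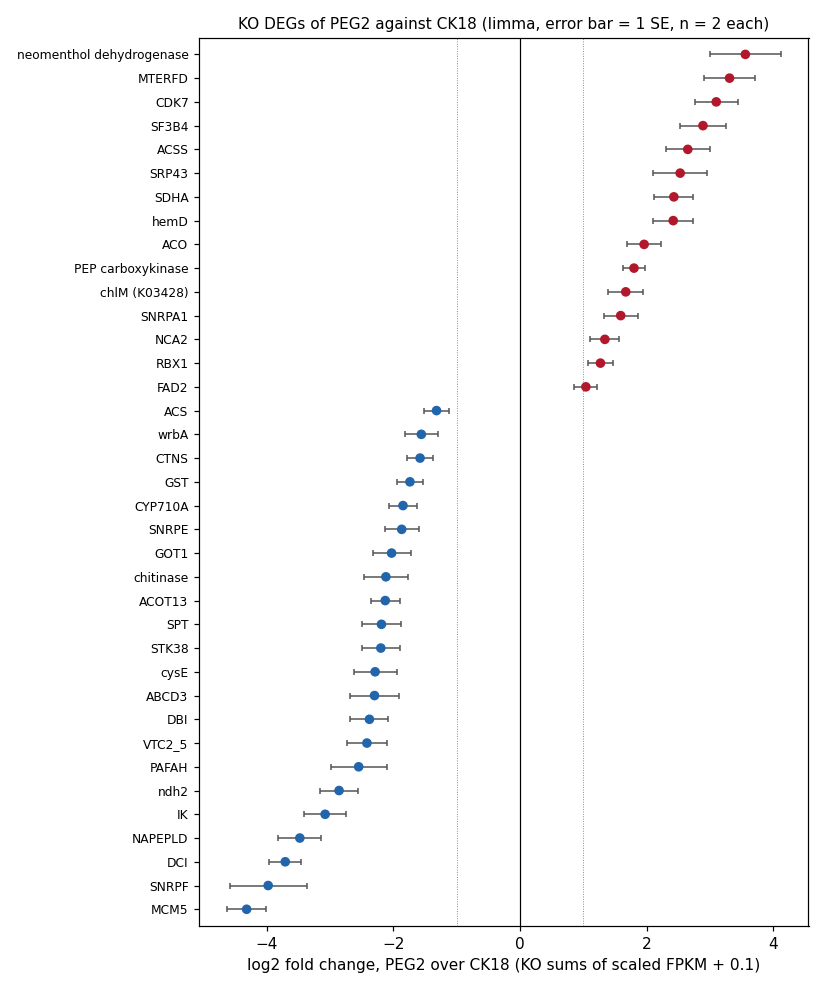
Log2 fold change of PEG2 over CK18 (x axis) for 37 of the 38 KO DEGs (y axis), with bars of 1 SE from limma and n = 2 libraries in each group, and dotted lines at a change of 1 either way. Dolichol-phosphate mannosyltransferase subunit DPM2, listed at 0 in both PEG2 libraries, is left out. The 15 increases run from 1.04 (FAD2) to 3.56 (neomenthol dehydrogenase) and the 22 decreases shown from -1.32 (ACS) to -4.32 (MCM5).

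Among enzymes that make and burn acetyl-CoA or turn it towards sugar, ACSS, ACO, SDHA and phosphoenolpyruvate carboxykinase rose in PEG2. Acetyl-CoA synthetase (ACSS, K01895), which activates free acetate, stood at 9198 and 14294 in PEG2 and at 1553 and 2159 in CK18. It rose by 2.65 ± 0.35 on the log2 scale (limma, adjusted p = 0.0211). The rise was carried by short unigenes. Its most abundant unigene, 315 bp long, had 4140 and 6165 scaled FPKM in PEG2 against 251.8 and 593 in CK18, whereas one of 790 bp had 323.1 and 619.8 in PEG2 against 218.8 and 220.9 in CK18. With only unigenes of at least 400 bp, a setting chosen after the data were seen, the ACSS change was 0.84 (adjusted p = 0.212).

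Of the 15 TCA cycle KOs tested, 2 rose (the background for higher DEGs is 0.486%), 12 had both PEG2 libraries above both CK18 libraries (22.3% over all KOs) and 11 were higher at an unadjusted p under 0.05 (9.01% over all KOs). The list had a median log2 fold change of 1.18, against 0.00 over all KOs tested. Aconitase (ACO, K01681), which turns citrate into isocitrate, had 1151 and 928.3 in PEG2 and 211 and 334.1 in CK18. It rose by 1.96 ± 0.27 (adjusted p = 0.0213). The flavoprotein subunit of succinate dehydrogenase (SDHA, K00234), the enzyme shared by the TCA cycle and the respiratory chain, had 262.3 and 361.4 in PEG2 and 46.1 and 70.47 in CK18. It rose by 2.43 ± 0.31 (adjusted p = 0.0208).

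The other steps of the cycle mostly lay on the same side without passing the test. The iron-sulfur subunit SDHB had 167.5 and 132.6 in PEG2 and 28.36 and 57.84 in CK18, a log2 fold change of 1.88 (adjusted p = 0.0645). Citrate synthase (CS), the entry point for acetyl-CoA, had 969.5 and 1856 in PEG2 and 589 and 417.1 in CK18, a change of 1.44 (adjusted p = 0.101). These libraries did not overlap. The succinyl-CoA synthetase subunits LSC2 and LSC1 had log2 fold changes of 1.44 and 1.09, and NAD-dependent isocitrate dehydrogenase (IDH3) had 1.18. The 2-oxoglutarate dehydrogenase subunits OGDH and DLST had 1.11 and 1.03. Class II fumarase was close to even between replicates, at 1574 and 1505 in PEG2 and 924.4 and 953.2 in CK18, with a change of 0.71 (adjusted p = 0.111). The malate dehydrogenases split, MDH1 with a change of 1.22 and MDH2 with -0.94, where PEG2 had 329.1 and 319.2 and CK18 903.6 and 425.4. The TCA list did not rest on the gap between the PEG2 libraries: its KOs had a median of 1.08 without replicate 1 and of 1.13 without replicate 2. Without either CK18 library none passed, as for all KOs.

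The glyoxylate cycle lets cells build sugar from acetate by skipping the CO2-releasing steps of the TCA cycle. Phosphoenolpyruvate carboxykinase (K01610), which takes oxaloacetate towards sugar, had 842.2 and 867.3 in PEG2 and 240.5 and 249.9 in CK18. It rose by 1.80 ± 0.18 (adjusted p = 0.0141), the smallest SE among the 38 KO DEGs together with FAD2. Isocitrate lyase, the first enzyme particular to the glyoxylate cycle, had 291.6 and 629.4 in PEG2 and 196 and 161.2 in CK18, with no overlap and a change of 1.27 that did not pass (adjusted p = 0.138). Malate synthase, its partner, overlapped between the groups, with 1386 and 1698 in PEG2 and 1934 and 1121 in CK18 (log2 fold change 0.06).

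Other KOs of pyruvate and acetyl-CoA supply gave no DEG. Over the 10 KOs of this list, ACSS included, the median was 0.26 and 8 fold changes were above 0. The median was 0.26 without PEG2 replicate 1 and 0.30 without replicate 2. The alpha and beta subunits of pyruvate dehydrogenase E1 (PDHA and PDHB), which make acetyl-CoA from pyruvate, had log2 fold changes of 0.06 and -0.11, and its E2 subunit (DLAT) had 128.2 and 198.1 in PEG2 and 105.6 and 110 in CK18, a change of 0.56 (adjusted p = 0.301). ATP citrate lyase (ACLY), which splits cytosolic citrate into acetyl-CoA for lipid synthesis, had 134.9 and 161.3 in PEG2 and 664.9 and 338 in CK18. Its change was -1.68 and missed the threshold (adjusted p = 0.0644). Pyruvate, orthophosphate dikinase (ppdK) was far apart within PEG2, with 10035 and 3419, and had 5229 and 5975 in CK18. Malic enzyme (K00029) had 56.99 and 69.54 in PEG2 and 32.12 and 35.75 in CK18, a change of 0.89 (adjusted p = 0.122). The median of the 15 glycolytic KOs was 0.32 with none passing in limma, 0 higher and 2 lower at an unadjusted p under 0.05. It was 0.54 without PEG2 replicate 1 and -0.06 without replicate 2.

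**Figure D2:**
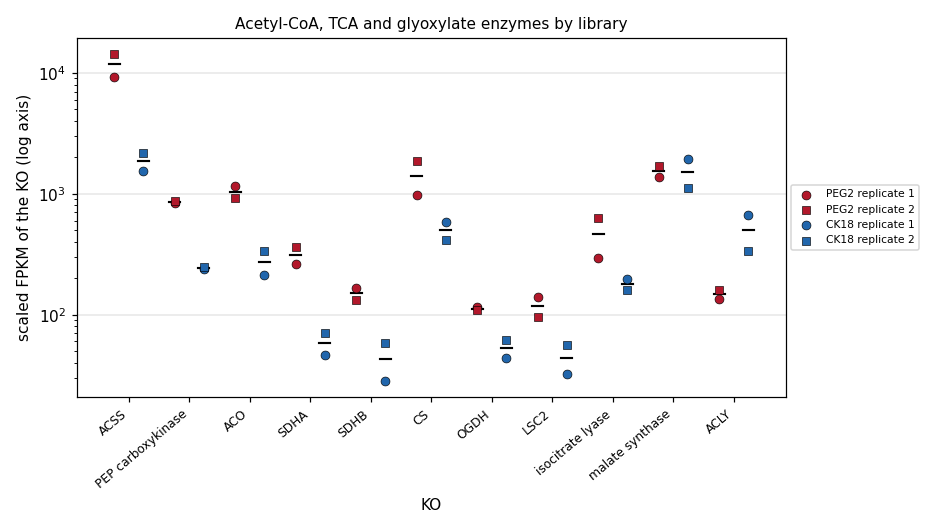
Scaled FPKM (log axis) of 11 KOs of acetyl-CoA supply, the TCA cycle and the glyoxylate cycle (x axis), with PEG2 in red and CK18 in blue, circles for replicate 1, squares for replicate 2 and a black line at each mean. PEG2 lies wholly above CK18 in the first 9 KOs, overlaps it in malate synthase and lies wholly below it in ACLY.

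In the respiratory chain and ATP synthase, 0 of 61 KOs tested rose and 1 fell (0.746% over all KOs), with a median of 0.21. At an unadjusted p under 0.05, 15 were higher (9.01% over all KOs) and 3 lower (10.2%), and 25 were higher (22.3%) and 10 lower (25.3%) without overlap. The median was 0.20 without PEG2 replicate 1 and 0.23 without replicate 2. Cytochrome c1 (CYC1), of the complex that passes electrons from ubiquinol to cytochrome c, had 660.4 and 590.8 in PEG2 and 279.6 and 385.2 in CK18, a change of 0.93 (adjusted p = 0.097). The complex I subunit NDUFA9 had 58.99 and 60.4 in PEG2 and 32.62 and 31.56 in CK18, a change of 0.89 (adjusted p = 0.107). The mitochondrial ADP/ATP carrier (SLC25A4S) had 1784 and 1743 in PEG2 and 1131 and 1134 in CK18 (change 0.64, adjusted p = 0.101). The member that fell was ndh2 (K17872), a type II NADH dehydrogenase that oxidises NADH without pumping protons, with 3.971 and 4.473 in PEG2 and 34.06 and 28.76 in CK18. It fell by 2.86 on the log2 scale (SE 0.30, adjusted p = 0.0141). The alternative oxidase AOX1, which also bypasses proton pumping, overlapped between the groups, with 573.7 and 1046 in PEG2 and 693.6 and 1077 in CK18. The KO named NCA2 (K18158), after a yeast protein that takes part in expressing mitochondrial ATP synthase genes, rose by 1.34 ± 0.23 (adjusted p = 0.0468), with 89.68 and 112.8 in PEG2 and 37.16 and 42.24 in CK18. SwissProt describes its most abundant unigene as a two-component response regulator-like protein (APRR3), so the mitochondrial name rests on the KO label alone. MTERFD (K15032), a member of the mTERF family of organelle transcription factors, rose by 3.31 ± 0.41 (adjusted p = 0.0193), with 13.31 and 8.03 in PEG2 and 1.27 and 0.7032 in CK18.

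In photosynthesis the PEG2 libraries fell on opposite sides of the control. All 11 light-harvesting antenna KOs, whose proteins bind chlorophyll and pass on absorbed light, had PEG2 replicate 1 below and replicate 2 above both CK18 libraries. The share of all KOs with this pattern was not counted. LHCB1, a major antenna protein of photosystem II, had 8724 and 16008 in PEG2 and 10343 and 10054 in CK18. LHCA2, of photosystem I, had 434.2 and 1460 in PEG2 and 603.2 and 509.8 in CK18. In 9 of the 11, replicate 2 of PEG2 was at least 2-fold above replicate 1, against 205 of 2015 KOs with at least 10 FPKM in PEG2. No antenna KO was a DEG or had an unadjusted p under 0.05 in limma. Their median log2 fold change of 0.31 was 0.95 without PEG2 replicate 1 and -0.34 without replicate 2.

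Of 28 photosystem and electron carrier KOs, 15 also had the PEG2 libraries on opposite sides of both controls, a pattern not counted over all KOs. The oxygen-evolving protein psbO had 3143 and 11884 in PEG2 and 5960 and 4505 in CK18. Of the 28, 0 were DEGs and 2 were higher at an unadjusted p under 0.05. Their median was 0.26, and it was 0.98 without PEG2 replicate 1 and -0.34 without replicate 2. Calvin cycle KOs, which fix CO2, had a median of 0.22 over 9 (0.67 without PEG2 replicate 1 and -0.14 without replicate 2), with 0 DEGs and 1 at an unadjusted p under 0.05. That one was rbcS, with both PEG2 libraries above both CK18 libraries and a change of 0.51 ± 0.15 (adjusted p = 0.147). Phosphoribulokinase (PRK), which regenerates the CO2 acceptor, overlapped, with 175.2 and 346.9 in PEG2 and 193.8 and 165.7 in CK18.

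Of 23 KOs of chlorophyll and heme synthesis tested, 2 rose (0.486% over all KOs) and 0 fell. Uroporphyrinogen-III synthase (hemD, K01719), which closes the ring common to both pigments, had 112.8 and 102.3 in PEG2 and 27.52 and 14.6 in CK18. It rose by 2.42 ± 0.32 (adjusted p = 0.0213). Magnesium-protoporphyrin O-methyltransferase (K03428, chlM), on the chlorophyll branch, had 94.04 and 66.71 in PEG2 and 24.37 and 25.45 in CK18. It rose by 1.67 ± 0.28 (adjusted p = 0.0468). In these 2 DEGs both PEG2 libraries lay above both controls, as in every KO DEG that rose. Of the 23 KOs, 7 had PEG2 replicate 1 below and replicate 2 above both CK18 libraries, the pattern of the antenna. Chlorophyll synthase (chlG), the last step, had 24.67 and 31.47 in PEG2 and 12.3 and 13.37 in CK18, a change of 1.11 (adjusted p = 0.0991). The divinyl reductase DVR went the other way, with 4.849 and 21.66 in PEG2 and 74.13 and 109.9 in CK18, a change of -3.12 ± 0.67 (adjusted p = 0.0843). Over the 23 KOs the median was 0.41, and it was 1.17 without PEG2 replicate 1 and -0.02 without replicate 2.

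SRP43 (K12271), the chloroplast signal recognition particle protein that carries antenna proteins to the thylakoid, had 8.294 and 10.5 in PEG2 and 1.888 and 1.248 in CK18. It rose by 2.53 ± 0.43 (adjusted p = 0.0468). Photorespiration, which recovers carbon from the oxygenase side reaction, had 0 DEGs among 11 KOs, a median of 0.17, and 1 higher and 1 lower KO at an unadjusted p under 0.05. Without PEG2 replicate 1 its median was 0.54, and without replicate 2 it was -0.16. Glutamate:glyoxylate aminotransferase (GGAT) was the higher KO in the fit of CK18, PEG1 and PEG2, with 250.4 and 152.1 in PEG2 and 78.47 and 81.03 in CK18 (change 1.29, adjusted p = 0.0942). The MEP pathway and carotenoid KOs had 0 DEGs of 20, a median of 0.19 and 2 higher at an unadjusted p under 0.05. Their median was 0.26 without PEG2 replicate 1 and 0.15 without replicate 2.

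**Figure D3:**
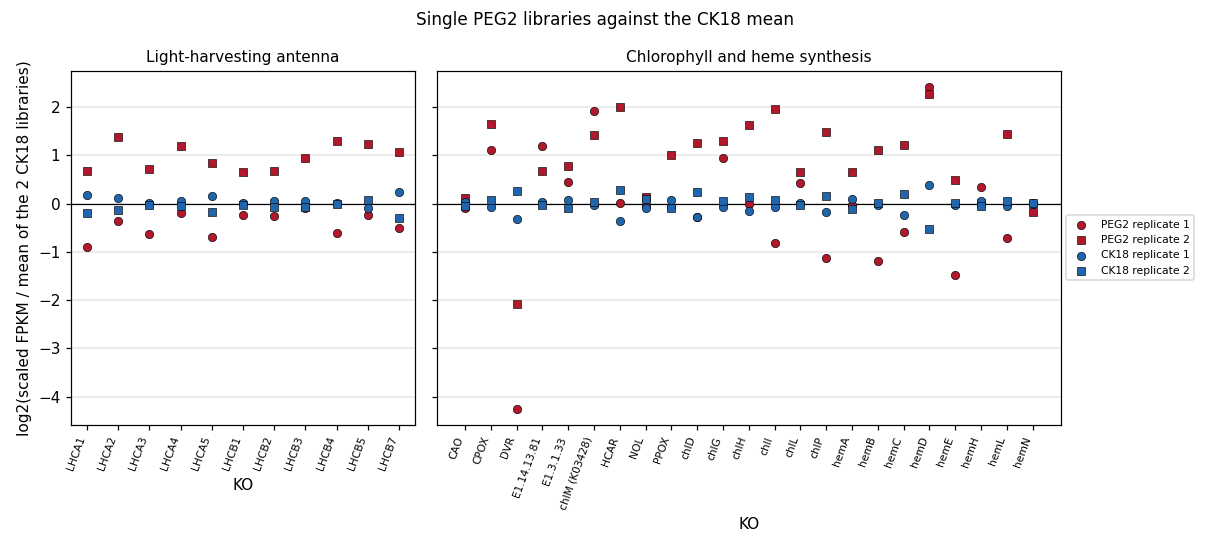
Each library over the mean of the CK18 libraries on the log2 scale (y axis) for the KOs of the antenna (left panel) and of chlorophyll and heme synthesis (right panel), with PEG2 in red, CK18 in blue, circles for replicate 1 and squares for replicate 2. In all 11 antenna KOs the PEG2 circle lies below and the PEG2 square above both CK18 points. Both PEG2 points of hemD and chlM, which are KO DEGs, lie above.

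Among KOs that handle acyl-CoA, grouped after their values were seen, DCI, ABCD3, DBI and ACOT13 fell. Dodecenoyl-CoA isomerase (DCI, K13238), which shifts double bonds so that unsaturated fatty acids can be broken down, had 10.58 and 11.74 in PEG2 and 168.9 and 128.7 in CK18. It fell by 3.71 on the log2 scale (SE 0.25, adjusted p = 0.00283), the smallest adjusted p of the comparison together with MCM5. ABCD3 (K05677), a transporter that brings fatty acyl groups into peroxisomes in animals, had 29.8 and 68.47 in PEG2 and 242 and 206.5 in CK18. It fell by 2.30 (SE 0.39, adjusted p = 0.0468). DBI (K08762), an acyl-CoA-binding protein, had 488.2 and 801.4 in PEG2 and 4096 and 2591 in CK18. It fell by 2.38 (SE 0.30, adjusted p = 0.0193). The thioesterase ACOT13 (K17362), which releases fatty acids from CoA, had 29.96 and 36.18 in PEG2 and 132.7 and 156.3 in CK18, and fell by 2.13 (SE 0.23, adjusted p = 0.0141). With only unigenes of at least 400 bp, the changes of ABCD3 and DBI were -1.04 (adjusted p = 0.172) and -1.11 (adjusted p = 0.129).

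The 9 KOs of the fixed list of fatty acid degradation held 0 DEGs, but 5 were lower at an unadjusted p under 0.05 (10.2% over all KOs), 5 had both PEG2 libraries below both CK18 libraries (25.3% over all KOs), and the median was -0.67. The median of this list was -0.54 without PEG2 replicate 1 and -0.70 without replicate 2. Peroxisomal dienoyl-CoA reductase (DECR2) had 491.6 and 869.7 in PEG2 and 3331 and 1782 in CK18, a change of -1.90 (adjusted p = 0.0625). Acyl-CoA dehydrogenase (ACADM) had 22.31 and 54.82 in PEG2 and 234.1 and 133.6 in CK18, a change of -2.33 (adjusted p = 0.0647). Long-chain acyl-CoA synthetase (ACSL), which activates fatty acids, had 644.7 and 593.7 in PEG2 and 2054 and 1248 in CK18, a change of -1.37 (adjusted p = 0.0569). None of these groups overlapped. The peroxins that build peroxisomes had 0 DEGs of 12, a median of -0.26, and 3 higher and 3 lower at an unadjusted p under 0.05. Their median was -0.39 without PEG2 replicate 1 and -0.16 without replicate 2.

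Membrane lipid enzymes moved in both directions. The oleate desaturase FAD2 (K10256), which adds the second double bond of membrane fatty acids, had 417.1 and 469.3 in PEG2 and 207.4 and 221.8 in CK18. It rose by 1.04 ± 0.18 (adjusted p = 0.0468), just past the fold limit. The omega-3 desaturase FAD8 had 351.4 and 323.7 in PEG2 and 214.9 and 146.8 in CK18, a change of 0.92 (adjusted p = 0.147). Serine palmitoyltransferase (SPT, K00654), the first step of sphingolipid synthesis, had 56.56 and 108 in PEG2 and 383.1 and 331.9 in CK18, and fell by 2.19 (SE 0.31, adjusted p = 0.028). CYP710A (K09832), the sterol C-22 desaturase of plants (SwissProt names its most abundant unigene P450 524A1), had 71.98 and 57.21 in PEG2 and 241.1 and 222.3 in CK18, and fell by 1.85 (SE 0.22, adjusted p = 0.0184). NAPEPLD (K13985), which in animals releases N-acylethanolamines from membrane lipid, had 8.612 and 15.55 in PEG2 and 108.5 and 155.4 in CK18. It fell by 3.48 (SE 0.34, adjusted p = 0.0141). PAFAH (K01062), an acetylhydrolase of phospholipids, had 4.717 and 5.379 in PEG2 and 45.33 and 19.83 in CK18, and fell by 2.55 (SE 0.44, adjusted p = 0.047), or -2.54 with only unigenes of at least 400 bp (adjusted p = 0.0519). Fatty acid synthesis had 0 DEGs of 11 and a median of -0.35, with 0 higher and 3 lower at an unadjusted p under 0.05. Its median was -0.15 without PEG2 replicate 1 and -0.45 without replicate 2. Glycerolipid and triacylglycerol assembly had 0 of 15 and a median of 0.03, with 2 higher and 1 lower. Its median was 0.02 without PEG2 replicate 1 and 0.11 without replicate 2.

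Among sulfur, ascorbate and glutathione functions, cysE, CTNS, GST and VTC2_5 fell in PEG2. Serine O-acetyltransferase (cysE, K00640), which makes the acceptor for sulfide in cysteine synthesis, had 71.06 and 141.6 in PEG2 and 571.7 and 419.9 in CK18. It fell by 2.29 (SE 0.34, adjusted p = 0.0313). Cystinosin (CTNS, K12386), which in animals exports cystine from lysosomes, had 132.7 and 177.1 in PEG2 and 475.4 and 442.9 in CK18, and fell by 1.58 (SE 0.21, adjusted p = 0.0213). Glutathione S-transferase (GST, K00799), which joins glutathione to reactive compounds, had 394.8 and 526.6 in PEG2 and 1625 and 1428 in CK18. It fell by 1.74 (SE 0.20, adjusted p = 0.0143), but did not pass with only unigenes of at least 400 bp (-1.52, adjusted p = 0.0579) or with FPKM times length (-1.35, adjusted p = 0.0977), and its most abundant unigene was 270 bp long. Glutamate-cysteine ligase (gshA), which starts glutathione synthesis, had 131.1 and 257.2 in PEG2 and 634.9 and 481.2 in CK18, a change of -1.59 that did not pass (adjusted p = 0.0775). Of 5 KOs of glutathione synthesis and transferases, 1 fell (0.746% over all KOs) and the median was -1.59. It was -1.10 without PEG2 replicate 1 and -1.93 without replicate 2. Of 20 KOs of sulfate assimilation and the methionine cycle, 1 fell (0.746% over all KOs) and the median was -0.37. In 10 of them both PEG2 libraries lay below both CK18 libraries (25.3% over all KOs). The median was -0.37 without PEG2 replicate 1 and -0.27 without replicate 2.

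GDP-L-galactose phosphorylase (VTC2_5, K14190), the committed step of ascorbate synthesis in plants, had 131.6 and 249.2 in PEG2 and 1062 and 883.3 in CK18. It fell by 2.42 (SE 0.31, adjusted p = 0.0198). Monodehydroascorbate reductase (K08232), which recycles ascorbate, had 81.51 and 115.6 in PEG2 and 238 and 187.4 in CK18, a change of -1.12 (adjusted p = 0.0951). The quinone reductase wrbA (K03809), which reduces quinones without forming radicals, had 362.7 and 587.9 in PEG2 and 1259 and 1466 in CK18, and fell by 1.56 (SE 0.26, adjusted p = 0.0468). Superoxide dismutases, catalase and peroxidases held 0 DEGs of 12, with a median of -0.22, and 0 higher and 1 lower at an unadjusted p under 0.05. Their median was -0.11 without PEG2 replicate 1 and -0.45 without replicate 2. Catalase (katE) overlapped, with 435 and 290 in PEG2 and 537.8 and 274.7 in CK18. The Fe-Mn superoxide dismutase SOD2 had 93.29 and 175 in PEG2 and 231.2 and 208.8 in CK18, a change of -0.78 (adjusted p = 0.272).

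Compatible solute genes gave no DEG. The bifunctional trehalose 6-phosphate synthase/phosphatase (TPS), which makes trehalose, had 268.8 and 222.7 in PEG2 and 117.1 and 134.5 in CK18, a change of 0.96 (adjusted p = 0.0786). Trehalose 6-phosphate phosphatase (otsB) had 80.54 and 114 in PEG2 and 51.42 and 56.6 in CK18, a change of 0.83 (adjusted p = 0.151). In both, all PEG2 libraries lay above CK18, and they were the 2 of 6 trehalose and sucrose KOs that were higher at an unadjusted p under 0.05 (9.01% over all KOs). In this list 1 KO was lower at that p (10.2% over all KOs) and the median was 0.15. The median was 0.71 without PEG2 replicate 1 and 0.10 without replicate 2. Delta-1-pyrroline-5-carboxylate synthetase (ALDH18A1), which commits glutamate to proline, differed by 0.08, with 54.43 and 58.57 in PEG2 and 53.39 and 53.5 in CK18. Proline dehydrogenase (PRODH), which breaks proline down, had 57.18 and 233.2 in PEG2 and 265.9 and 259.8 in CK18, a change of -1.19 (adjusted p = 0.311). Both PEG2 libraries lay below CK18, but they differed widely. Proline and polyamine KOs had 0 DEGs of 12 and a median of -0.23, with 0 higher and 2 lower at an unadjusted p under 0.05. Their median was -0.09 without PEG2 replicate 1 and -0.71 without replicate 2.

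Protective proteins and stress signalling showed little change that passed the test. Heat shock proteins and chaperonins held 0 DEGs of 40, with a median of -0.22, and 0 higher and 1 lower at an unadjusted p under 0.05. Their median was -0.23 without PEG2 replicate 1 and -0.08 without replicate 2. HSPA1_8, the cytosolic HSP70, had 698.9 and 507.4 in PEG2 and 799.6 and 842.3 in CK18, a change of -0.46 (adjusted p = 0.264). HSPA5, the HSP70 of the endoplasmic reticulum, had 579.4 and 186.3 in PEG2 and 532.3 and 677.8 in CK18, another gene in which the PEG2 libraries were far apart. Late embryogenesis abundant (LEA) proteins, which protect dry plant cells, were matched at the unigene level: 287 unigenes carried the description, 121 were tested, 0 were DEGs, 7 were higher and 8 lower at an unadjusted p under 0.05, and 32 lay wholly higher (19.9% over all unigenes) and 22 wholly lower (18.8%). The kinase SNRK2 and the phosphatase PP2C, which in land plants pass on the abscisic acid signal, had log2 fold changes of -0.08 and -0.04. The aquaporin PIP had 52 and 54.22 in PEG2 and 26.56 and 41.76 in CK18, a change of 0.67 (adjusted p = 0.246). Signalling kinases and phosphatases held 0 DEGs of 16 and a median of 0.06, with 2 higher and 2 lower at an unadjusted p under 0.05. ACC synthase (ACS, K01762), which makes the precursor of ethylene in land plants, had 84.64 and 91.76 in PEG2 and 228 and 212.6 in CK18, and fell by 1.32 (SE 0.20, adjusted p = 0.0358). STK38 (K08790), an NDR-type kinase known in animals for control of growth and shape, had 6.934 and 7.168 in PEG2 and 41.7 and 25.69 in CK18, a decrease of -2.20 ± 0.30 (adjusted p = 0.023).

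MCM5 (K02209), a subunit of the ring-shaped MCM2-7 helicase that opens DNA for replication, had 1.942 and 2.154 in PEG2 and 40.15 and 45.25 in CK18. It fell by 4.32 (SE 0.31, adjusted p = 0.00283). The other subunits did not follow as a block. MCM2 and MCM3 had changes of -1.54 and -1.89, MCM6 had -0.92, MCM4 had 0.25 and MCM7 had 0.82, and none of these passed (adjusted p between 0.198 and 0.763). The sliding clamp PCNA had 1.602 and 0.8615 in PEG2 and 2.762 and 4.457 in CK18, a change of -1.50 (adjusted p = 0.16). Of 38 DNA replication KOs, 1 fell (0.746% over all KOs) and the median was 0.05. It was 0.19 without PEG2 replicate 1 and 0.03 without replicate 2. Of 44 cell cycle KOs, 1 rose (0.486% over all KOs) and the median was -0.17. It was -0.17 without PEG2 replicate 1 and -0.14 without replicate 2. The cell cycle KO that rose was CDK7 (K02202), the kinase that activates other cyclin-dependent kinases and serves in transcription, with 5.299 and 4.307 in PEG2 and 0.4545 and 0.4877 in CK18. It rose by 3.10 ± 0.34 (adjusted p = 0.0141), and its change was 1.89 with only unigenes of at least 400 bp (adjusted p = 0.0699). The KO named RBX1 (K03868), for the RING subunit of cullin ubiquitin ligases, rose by 1.27 ± 0.20 (adjusted p = 0.0358), with 428 and 466.6 in PEG2 and 165 and 207.1 in CK18. Its most abundant unigene, with 296.9 and 326.3 in PEG2 and 116.6 and 131 in CK18, had an oomycete best hit and is described by SwissProt as the ankyrin repeat protein secG. The most abundant unigene described as RING-box protein 1 had 6.539 and 6.866 in PEG2 and 8.488 and 9.804 in CK18. The change of the KO was -0.80 (adjusted p = 0.199) where only unigenes with a green algal or plant best hit were summed.

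Of 5 KO DEGs with names from the splicing machinery, grouped after their values were seen, 2 rose and 3 fell. SF3B4 (K12831) and SNRPA1 (K11092), both of the U2 particle that marks the branch point of an intron, were higher in PEG2. SF3B4 had 43.63 and 65 in PEG2 and 5.361 and 9.425 in CK18, and rose by 2.89 ± 0.36 (adjusted p = 0.0193). SNRPA1 had 49.95 and 35.26 in PEG2 and 13.47 and 14.35 in CK18, and rose by 1.59 ± 0.27 (adjusted p = 0.0468). The KOs named for the Sm ring proteins SNRPE and SNRPF, shared by several splicing particles, fell. SNRPE (K11097) had 31.83 and 31.62 in PEG2 and 99.63 and 135.5 in CK18, a decrease of -1.87 ± 0.27 (adjusted p = 0.0291), but SwissProt describes the unigene that holds 94.2% of its PEG2 sum and 92.8% of its CK18 sum as an uncharacterized transporter. SNRPF (K11098) had 0.373 and 1.104 in PEG2 and 16.05 and 8.676 in CK18, a decrease of -3.98 ± 0.61 (adjusted p = 0.0354). The CK18 sum of SNRPF came from a unigene of 358 bp. In limma SNRPF did not pass with FPKM times length (-3.40, adjusted p = 0.0532). IK (K13109), known in animals as a spliceosome-associated protein, had 7.021 and 12.48 in PEG2 and 87.9 and 72.3 in CK18, and fell by 3.08 (SE 0.33, adjusted p = 0.0141).

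Cytosolic ribosomal proteins mostly lay below the control by a small margin. Of 78 cytosolic ribosomal protein KOs, 53 had both PEG2 libraries below both CK18 libraries (25.3% over all KOs) and 2 had both above (22.3%), yet 0 were DEGs. Their median was -0.22, with a range from -1.26 (RP-L29e) to 0.51 (RP-S27e). At an unadjusted p under 0.05 in limma, 15 were lower (10.2% over all KOs) and 1 higher (9.01%). The median stayed below 0 under every scaling tried, from -0.24 with the unigene factors to -0.08 with quantile normalization. It was -0.21 and -0.18 without PEG2 replicate 1 or 2. Organelle-type ribosomal proteins had a median of 0.15 over 55 KOs, with 16 wholly higher (22.3% over all KOs), 2 wholly lower (25.3%) and 0 DEGs. At an unadjusted p under 0.05, 7 were higher (9.01% over all KOs) and 1 lower (10.2%). Their median was 0.15 without PEG2 replicate 1 and 0.14 without replicate 2. Ribosome biogenesis had 0 DEGs of 98 and a median of -0.04, with 3 higher and 5 lower at an unadjusted p under 0.05. The median was -0.26 without PEG2 replicate 1 and 0.25 without replicate 2. Translation factors had 0 of 47 and a median of -0.08, with 1 higher and 1 lower. Their median was -0.20 and 0.04 without PEG2 replicate 1 or 2.

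Autophagy and proteasome genes gave no DEG. Autophagy, which breaks down cell contents in vacuoles, held 0 DEGs of 15, with 6 higher and 0 lower at an unadjusted p under 0.05 (9.01% over all KOs for higher) and a median of 0.54. Its median was 0.55 without PEG2 replicate 1 and 0.48 without replicate 2. ATG7, the activating enzyme of autophagosome formation, had 12.5 and 18.49 in PEG2 and 5.49 and 6.011 in CK18, a change of 1.39 (adjusted p = 0.097). ATG10L had 15.12 and 22.38 in PEG2 and 6.935 and 7.69 in CK18, a change of 1.32 (adjusted p = 0.0942). GABARAP, the ATG8 family tag of the autophagosome membrane, had 367 and 444.9 in PEG2 and 229 and 258 in CK18, a change of 0.73 (adjusted p = 0.118). Proteasome subunits had 0 DEGs of 37 and a median of 0.12, with 1 higher and 0 lower at an unadjusted p under 0.05, but the median was -0.21 without PEG2 replicate 1 and 0.45 without replicate 2.

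Further KOs that passed belonged to no larger group. Neomenthol dehydrogenase (K15095), a short-chain reductase named for a terpene alcohol, had the largest fold change upward, with 11.99 and 6.053 in PEG2 and 0.338 and 1.123 in CK18, and rose by 3.56 ± 0.56 (adjusted p = 0.0358). Cytoplasmic aspartate aminotransferase (GOT1, K14454), which links aspartate to oxaloacetate, had 38.11 and 48.96 in PEG2 and 194.1 and 161.1 in CK18, and fell by 2.03 (SE 0.30, adjusted p = 0.0291). Chitinase (K01183), which cuts chitin-like wall polymers, had 9.073 and 18.56 in PEG2 and 59.04 and 54.92 in CK18, and fell by 2.12 (SE 0.35, adjusted p = 0.0468). Its most abundant unigene, of 1429 bp, was lower, with 5.594 and 6.709 in PEG2 and 56.32 and 50.47 in CK18. Another chitinase unigene, of 1809 bp, was higher, with 2.574 and 8.945 in PEG2 and 0.3084 and 0.05363 in CK18. The chitinase sum did not pass in limma with FPKM times length (adjusted p = 0.0672). DPM2 (K09658), a subunit of the enzyme that makes the mannose donor for protein glycosylation, was listed at 0 in both PEG2 libraries, and had 2.494 and 2.314 in CK18 (adjusted p = 0.0213). Its CK18 sum came from a unigene of 270 bp. In limma it did not pass with 1 in place of 0.1 added to FPKM (-1.77, adjusted p = 0.0931). Nor did it pass with FPKM times length (-2.90, adjusted p = 0.0951).

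Nitrogen and phosphate functions gave no DEG. Glutamate synthase (GLT1), which feeds ammonium nitrogen into glutamate, had 190.7 and 158.2 in PEG2 and 52.1 and 91.43 in CK18, a change of 1.33 (adjusted p = 0.101). Glutamine synthetase (glnA) had 891.4 and 3005 in PEG2 and 849.9 and 1151 in CK18, with replicate 2 of PEG2 again the higher. Of 9 nitrogen assimilation KOs, 2 were higher and 1 lower at an unadjusted p under 0.05 and the median was 0.38. It was 0.87 without PEG2 replicate 1 and -0.13 without replicate 2. The acid phosphatase ACP5 had 16.22 and 21.25 in PEG2 and 6.014 and 8.007 in CK18, a change of 1.41 (adjusted p = 0.0777). It was the highest of 4 phosphate uptake and acid phosphatase KOs, which ran from -1.05 to 1.41 with a median of 0.09. Of 61 purple acid phosphatase unigenes tested, 10 lay wholly higher (19.9% over all unigenes) and 9 wholly lower (18.8%), with a median of 0.00. Unigenes described as hydroxylamine reductase were abundant, with 29146 and 20062 summed scaled FPKM in PEG2 and 22717 and 44346 in CK18. Of 35 such unigenes tested, 0 were DEGs, 2 were higher and 7 lower at an unadjusted p under 0.05, and 18 had both PEG2 libraries below both CK18 libraries (18.8% over all unigenes). Starch synthesis and breakdown had 0 DEGs of 11, a median of -0.01 (0.02 and 0.01 without PEG2 replicate 1 or 2) and none at an unadjusted p under 0.05.

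The 10 KOs with the highest mean FPKM were rbcS, EEF1A, GAPA, RP-L27e, EF3, RP-L37e, RP-S16e, RP-S24e, RP-L23Ae and RP-L23e. None of them passed the test, and their log2 fold changes lay between -0.38 (RP-S24e) and 0.51 (rbcS). EEF1A, which brings aminoacyl-tRNA to the ribosome, had 97484 and 91827 in PEG2 and 116906 and 103249 in CK18, a change of -0.22 (adjusted p = 0.348). GAPA, the Calvin cycle glyceraldehyde-3-phosphate dehydrogenase, had 27395 and 59356 in PEG2 and 36472 and 31042 in CK18, and so showed the photosynthetic gap between the PEG2 libraries.

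The dose was examined by testing PEG2 against PEG1 in the same fit. The PEG2 libraries stand in both comparisons, and CK18 is shared where PEG1 and PEG2 are each set against it, so values are given side by side. Of 3085 KOs, 403 were DEGs of PEG2 against PEG1 (13.1%), 254 higher in PEG2 (8.23%) and 149 lower (4.83%). This split depended on scaling: it was 82 higher and 536 lower with FPKM as deposited, 88 and 501 with TPM, and 194 and 171 with the unigene factors. With FPKM as deposited the median of all KOs was -0.60 and with TPM -0.55, against -0.06 here. The count was also 0 without PEG1 replicate 2 and 8 without PEG1 replicate 1, with 573 and 643 KOs at an unadjusted p under 0.05, and 184 and 192 without CK18 replicate 1 or 2.

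ACO, SDHA, phosphoenolpyruvate carboxykinase and ACSS were also higher in PEG2 than in PEG1. ACO had 211 and 334.1 in CK18, 209.7 and 168.4 in PEG1, and 1151 and 928.3 in PEG2. It rose by 2.46 in PEG2 over PEG1 (adjusted p = 0.00761). SDHA had 46.1 and 70.47 in CK18, 39.47 and 57.95 in PEG1, and 262.3 and 361.4 in PEG2, a rise of 2.68 over PEG1 (adjusted p = 0.00834). Phosphoenolpyruvate carboxykinase had 240.5 and 249.9 in CK18, 179.4 and 145.5 in PEG1, and 842.2 and 867.3 in PEG2, a rise of 2.40 over PEG1 (adjusted p = 0.00704). ACSS had 2088 and 3983 in PEG1, and rose by 1.99 in PEG2 over PEG1 (adjusted p = 0.0154). The 2 PEG1 libraries thus lay far below PEG2 in these 4 functions. Of the 15 TCA cycle KOs, 10 rose in PEG2 over PEG1 (8.23% over all KOs) and 0 fell (4.83%), with a median of 1.76. All 3 KOs of the glyoxylate cycle and phosphoenolpyruvate carboxykinase rose (8.23% over all KOs). With FPKM as deposited, where all KOs shift downward, 82 of 3085 KOs rose. In that setting 6 of the TCA cycle KOs and 1 of the 3 glyoxylate cycle and carboxykinase KOs rose, and the TCA median was 1.21.

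In the chlorophyll and heme list 10 of 23 KOs fell in PEG2 against PEG1 (4.83% over all KOs) and 0 rose (8.23%), with a median of -1.27. With FPKM as deposited 15 fell (536 of 3085 over all KOs). Glutamate-1-semialdehyde aminotransferase (hemL), an early step, had 51.92 and 56.18 in CK18, 303.4 and 537.6 in PEG1, and 33.1 and 147.7 in PEG2. For chlG the levels were 12.3 and 13.37 in CK18, 92.93 and 119 in PEG1, and 24.67 and 31.47 in PEG2, which was -1.91 against PEG1 (adjusted p = 0.00924). PRK had 193.8 and 165.7 in CK18, 822.3 and 1039 in PEG1, and 175.2 and 346.9 in PEG2, or -1.91 against PEG1 (adjusted p = 0.0148). SRP43 followed the same order, with 1.888 and 1.248 in CK18, 22.4 and 47.27 in PEG1, and 8.294 and 10.5 in PEG2, or -1.79 against PEG1 (adjusted p = 0.0322). Over the antenna, 8 of 11 KOs had both PEG1 libraries above both CK18 libraries. None was a DEG of PEG2 against PEG1 (13.1% over all KOs). With FPKM as deposited 2 were DEGs, both lower (536 of 3085 lower over all KOs). The share of all KOs with PEG1 wholly above CK18 was not counted.

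Of the 15 KOs that rose in PEG2 over CK18, 5 were also higher (8.23% over all KOs) and 1 was lower (4.83%) than in PEG1. In 11 of them both PEG1 libraries lay below both PEG2 libraries, a share not counted over all KOs. The 15 were picked for high levels in the same PEG2 libraries, which favours PEG2 above PEG1. Of the 23 that fell, which were picked for low PEG2 levels, 5 were higher (8.23% over all KOs) and 3 lower (4.83%) than in PEG1. MCM5 and DCI were low at both doses. MCM5 had 40.15 and 45.25 in CK18, 2.426 and 3.411 in PEG1, and 1.942 and 2.154 in PEG2. DCI had 168.9 and 128.7 in CK18, 12.33 and 11.07 in PEG1, and 10.58 and 11.74 in PEG2. Others were lower in PEG1 than in PEG2: wrbA had 1259 and 1466 in CK18, 67.27 and 57.79 in PEG1, and 362.7 and 587.9 in PEG2, or 2.89 over PEG1 (adjusted p = 0.00704). CTNS, CYP710A, ACS and VTC2_5 shared this order, with PEG2 over PEG1 at 1.66, 1.37, 1.88 and 1.62. Ribosome biogenesis was level between PEG2 and CK18. Against PEG1, 35 of its 98 KOs were higher in PEG2 (8.23% over all KOs) and 1 was lower (4.83%). With FPKM as deposited, 12 were higher and 2 lower (82 and 536 of 3085 over all KOs). The nucleolar protein PES1 had 148.3 and 123.6 in CK18, 21.86 and 30.91 in PEG1, and 147 and 129 in PEG2. HSPA5 had 532.3 and 677.8 in CK18, 58.95 and 46.73 in PEG1, and 579.4 and 186.3 in PEG2, a rise of 2.64 over PEG1 (adjusted p = 0.0177).

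**Figure D4:**
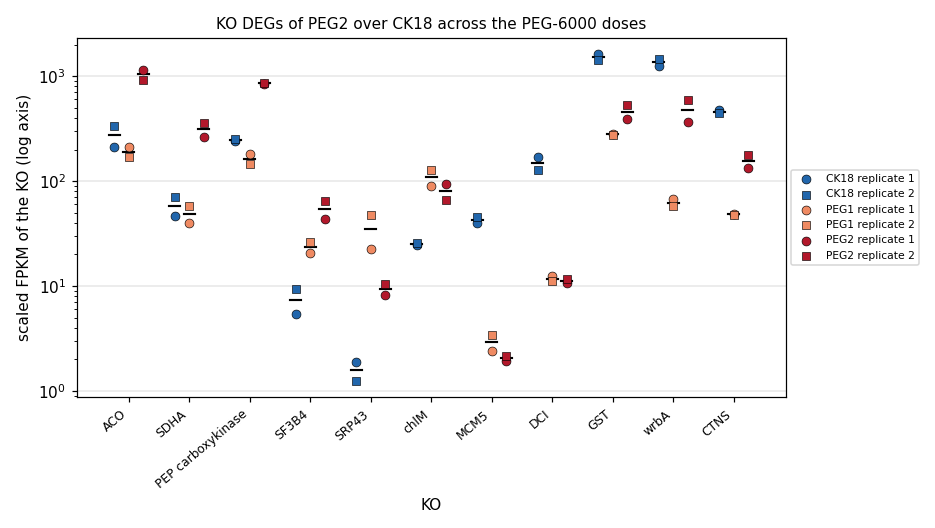
Scaled FPKM (log axis) of 11 KO DEGs of PEG2 over CK18 (x axis) in CK18, PEG1 and PEG2 from left to right, with circles for replicate 1, squares for replicate 2 and a black line at each mean. ACO, SDHA and phosphoenolpyruvate carboxykinase are high only in PEG2 among these groups, SRP43 is highest in PEG1, MCM5 and DCI are low at both doses, and wrbA and CTNS are lowest in PEG1.

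Single unigenes of 1 function did not always follow its sum. Among 3998 unigenes with a KO and a mean of at least 10 FPKM, 275 were at least 2-fold higher and 423 at least 2-fold lower in PEG2 with no overlap. They belonged to 457 KOs, and 35 of these held unigenes of both directions. SDHA, whose sum rose, had 2 higher and 1 lower among 17 tested unigenes. GST, whose sum fell, had 1 higher and 7 lower among 40. SNRK2, with a level sum, had 1 higher and 4 lower among 121, and AOX1 had 2 higher and 1 lower among 18. No KO held unigene DEGs of both directions in limma, since no unigene was a DEG.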

How the data were processed

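Total RNA of Chlorella sp. TLD6B was sequenced by the study in 12 libraries. The authors assembled the clean reads with Trinity, clustered transcripts with Corset, mapped with Bowtie 2 and RSEM, and deposited FPKM with annotation. The authors tested read counts with DESeq. Counts were not used here, so limma replaced it. The depth of each library is unknown from FPKM. Among unigenes near 400 bp the commonest low FPKM, which falls as depth grows, was 0.35 and 0.35 in PEG2 and 0.41 and 0.36 in CK18.

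FPKM of CK18, PEG1 and PEG2, or their sums by KO, were divided by the library's median ratio to the geometric mean. Features with at least 0.3 FPKM in at least 2 of 6 libraries were kept, 0.1 was added and log2 was taken. R 4.3.3 with limma 3.58.1 (intensity trend, two-sided, Benjamini-Hochberg over all features) was used, with 3 residual degrees of freedom. Each script that fits was tested on simulated data.

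Members and gene lists were chosen with earlier results of these data known. Named by rule were the 10 largest increases and decreases among KO DEGs with a mean of at least 10 FPKM in the higher group and no overlap, the same with 5 each for unigene DEGs (there were none), up to 4 passing members of each list and, where fewer than 2 passed, its 2 most abundant members, and the 10 KOs of highest mean FPKM. Other genes, including the remaining KO DEGs, were named after their values were seen. Some genes are not reported here. Alternatives were other pseudocounts, filters, scalings, thresholds, library sets and unigene sets.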

Additional observations from a re-analysis of the deposited data

How the results depend on the processing

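The 38 KO DEGs kept their direction in every alternative in which they were tested, except RBX1, which was -0.80 with green algal and plant unigenes only; the cause was not tested. The number of KO DEGs was 183 with all 12 libraries in the fit, 15 with only CK18 and PEG2, 2 at an adjusted p under 0.01, and 0 to 362 with 1 library left out at a time. The number of unigene DEGs was 35 with a pseudocount of 1, 992 with 0.01, 112 with a mean of at least 1 FPKM, 27 with TPM, 1403 with all 12 libraries and 7 with FPKM summed by protein hit, and 0 in each fit without 1 library. KOs with unigene DEGs of both directions numbered 9 with the pseudocount of 0.01 and 17 with all 12 libraries, against 0. The PEG2 against PEG1 count was 618 with FPKM as deposited, 49 at an adjusted p under 0.01, and 0 to 787 with 1 library left out at a time. The cause of these shifts was not tested. With 2 alternatives chosen after the data were seen, KO DEGs numbered 31 (unigenes of at least 400 bp) and 26 (FPKM times length). In fits that leave 1 library in a group, that library is assumed to vary like the others.

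With the replicate number as a block, KO DEGs numbered 26, unigene DEGs 0 and PEG2 against PEG1 DEGs 400. Whether replicate numbers pair the libraries is not known from the labels. Over KOs the deviations of same-numbered libraries correlated at 0.0546 for PEG2 and CK18, 0.188 for PEG2 and PEG1 and -0.0386 for PEG1 and CK18. With a single replicate difference in each group, these values cannot show whether the libraries were paired. With 2 libraries in each group and depth not used, small changes of low KOs cannot be judged here.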
